A study of Mus musculus with 8 samples.

Results

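Axon guidance ligands and receptors were examined in islets of mice on 2 diets. They were taken as every probe set annotated to 1 gene whose symbol begins with Sema and a digit, Plxn, Efna, Efnb, Epha, Ephb, Slit and a digit, Robo, Unc5 or Ntn and a digit, with Nrp1, Nrp2 and Dcc added. This rule gave 71 of the 18194 genes that the array names, on 156 of its 45101 probe sets. Symbols of 3 of these genes (Unc50, Unc5cl and Plxna4os1) match the rule although the genes are not guidance ligands or receptors, which leaves 68 guidance genes, 35 ligands and 33 receptors or co-receptors.

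Semaphorins, ephrins, Slits and netrins are secreted or membrane-bound cues that steer growing axons, and the same cues guide migrating cells and new vessels. Secreted class 3 semaphorins signal through neuropilins and plexins, ephrins through Eph receptors in both directions between touching cells, Slits through Robo receptors, and netrins through Dcc and Unc5 receptors. In islets, Eph receptors and ephrins have been linked to contact between beta cells and to insulin secretion, and Slits and Robos to beta cell survival and to the arrangement of endocrine cells.

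The samples were islets of male C57Bl/6J mice, a strain whose NC and HF animals alike carry a naturally occurring deletion in Nnt, a mitochondrial antioxidant gene. From weaning at 4 weeks of age the mice ate regular chow (NC, 4 kcal% fat in the methods) or a high fat diet (HF, 45 kcal% fat), for 12 weeks by the sample labels and 14 weeks by the methods. Each sample combined hand-picked islets of 2 mice, so n counts pools. There were 4 NC samples (replicates 1, 2, 4 and 5) and 4 HF samples (replicates 21, 22, 23 and 24), each on 1 MOE 430v2 array. Values below are GCRMA intensities (background-adjusted and normalized across arrays, on the linear scale) and are listed in that order of replicates. The median intensity over the array lay between 13.0 and 13.8, every sample correlated more with its own diet (mean r 0.992 to 0.995) than with the other (0.987 to 0.989), and no sample stood apart over the whole array. HF replicate 23 stood above the other HF samples for several markers of peripheral neurons, as given with those markers.

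A filter kept the 25617 probe sets whose third-highest intensity was greatest, the lowest at 8.82. It retained 73 of the 156 probe sets, of 46 genes. Guidance genes accounted for 70 of these probe sets and 45 of these genes, 25 of them ligands and 20 receptors or co-receptors, and Unc50 for the other 3. The 83 probe sets left out had a median intensity of 5.18 and a highest single value of 11.4. No probe set was retained for 25 genes. Among these were the netrin receptor Dcc, Slit1, Robo3, Sema3a, Sema3d, Plxna4 and Unc5d. Of the EphA receptors 6 of 9 were not retained, and of the EphB receptors 3 of 4.

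Of the 4 genes that represent these families here, Sema3c, Nrp1 and Slit2 were measured and Epha5 was not. Epha5, an Eph receptor described in beta cells, has 4 probe sets. Their intensities ran from 4.59 to 9.57, and only 1 of them passed 8.82, in HF replicate 23 (9.57) and HF replicate 24 (8.97). None was retained, and with no filter their adjusted p ran from 0.535 to 1.

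Promoters are shown for the Slit pair, for Robo1, their receptor, which was not called, and for Sema7a, the semaphorin with the smallest p-value. Each is the 250 bases before the gene's start in RefSeq (GRCm38.p6), and capitals mark the GC box GGGCGG or its reverse complement CCGCCC, overlapping matches included. Slit2 lies at chr5:47982905-47983154 (+ strand), Slit3 at chr11:35121206-35121455 (+), Robo1 at chr16:72662899-72663148 (+) and Sema7a at chr9:57939862-57940111 (+).
Slit2: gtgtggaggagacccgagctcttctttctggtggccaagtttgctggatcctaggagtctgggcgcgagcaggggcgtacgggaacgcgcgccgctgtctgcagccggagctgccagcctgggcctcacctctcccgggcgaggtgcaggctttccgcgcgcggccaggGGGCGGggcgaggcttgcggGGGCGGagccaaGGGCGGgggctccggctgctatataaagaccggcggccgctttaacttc
Slit3: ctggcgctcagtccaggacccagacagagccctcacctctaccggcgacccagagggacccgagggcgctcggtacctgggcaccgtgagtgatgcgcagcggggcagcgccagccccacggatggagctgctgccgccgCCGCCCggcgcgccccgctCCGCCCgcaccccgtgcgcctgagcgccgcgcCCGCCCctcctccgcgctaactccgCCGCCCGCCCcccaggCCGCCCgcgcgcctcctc
Robo1: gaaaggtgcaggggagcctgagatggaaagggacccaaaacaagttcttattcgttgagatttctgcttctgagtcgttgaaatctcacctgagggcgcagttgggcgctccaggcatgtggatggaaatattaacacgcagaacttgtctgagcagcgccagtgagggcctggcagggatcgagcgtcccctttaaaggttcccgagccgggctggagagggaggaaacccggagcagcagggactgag
Sema7a: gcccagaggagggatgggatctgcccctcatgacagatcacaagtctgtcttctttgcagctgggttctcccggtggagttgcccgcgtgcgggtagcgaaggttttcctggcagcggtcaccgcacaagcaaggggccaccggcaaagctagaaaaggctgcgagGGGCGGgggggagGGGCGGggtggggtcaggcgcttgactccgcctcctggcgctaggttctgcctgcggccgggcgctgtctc
The Slit2 window holds 3 GC boxes and 25 CG dinucleotides, that of Slit3 6 and 35, that of Sema7a 2 and 17, and that of Robo1 0 and 11. A GC box was present in 32.7% of all 32851 promoters in the table, whose median was 6 CG dinucleotides, and in 71.6% of 74 promoters of guidance genes, whose median was 15. Of the 8 genes called lower below, 6 had an entry (all but Sema3b and Ntn1) and each of these 6 held a GC box. These matches describe the letters in the windows only.

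HF and NC were compared with limma, and a probe set was called where the Benjamini-Hochberg adjusted p was under 0.05 over all retained probe sets and the fold change was at least 1.5. Among the 73 probe sets, 8 were called lower in HF, each of another gene, against 3.06% of all retained probe sets. None was called higher, against 0.644% of all. The 8 genes were Sema3b, Slit2, Ntn1, Sema7a, Sema3g, Slit3, Efnb2 and Sema3e. Of these, Sema3b and Ntn1 were retained through their NC samples alone, so a difference was built into their retention and their tests are given as a description only. With no fold limit 14 probe sets were lower (background 4.13%) and 0 higher (background 2.03%). At an unadjusted limma p under 0.05 with no fold limit, 32 were lower (background 10.8%) and 2 higher (background 10.1%). All HF samples lay under all NC samples for 21 of the 73 probe sets (background 7.84%) and over them for 2 (background 6.81%), one of Plxna2 and one of Unc50. The log2 fold change was below 0 for 53 of the 73 (background 43.4%), and its median was -0.19 beside 0.02 over all retained probe sets. Leaving out NC replicate 1 or HF replicate 24 gave 5 lower probe sets in place of 8, and leaving out NC replicate 4 or HF replicate 22 gave 13. In RNA of whole islets, fewer cells of a type and less RNA per cell cannot be told apart.

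All 8 genes encode ligands, 8 of 25 retained ligand genes and 0 of 20 receptor genes, beside 4.66% of all 12299 genes with a retained probe set. The count of 0 of 20 is too near that share to read a result about receptors from. The 8 include Sema3b and Ntn1, retained through their NC samples alone. The split depended on the setting and on single samples. Receptors were called lower too when samples were scaled on beta cell markers (Plxnc1, Plxnd1, Nrp2 and Robo4), with sample weights (Plxnc1), unadjusted by the test of the methods (Plxnc1 and Nrp2) and with no fold limit (Nrp1, Plxnd1 and Robo4). The same was true in 6 of the 8 runs that left out 1 sample, with 5 receptor genes without NC replicate 4 (Ephb4, Nrp2, Plxnc1, Plxnd1 and Robo4), 2 without HF replicate 22 (Nrp2 and Plxnd1), and 1 each without NC replicate 2, HF replicate 21 or HF replicate 24 (Plxnd1) and without HF replicate 23 (Plxnc1). The median log2 fold change was -0.31 over the 40 ligand probe sets and -0.09 over the 30 receptor probe sets. At an unadjusted limma p under 0.05 with no fold limit, 10 of the 30 receptor probe sets were lower and 2 higher, beside the same 10.8% and 10.1% of all. The difference between ligands and receptors as classes was not tested.

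**Figure D1:**
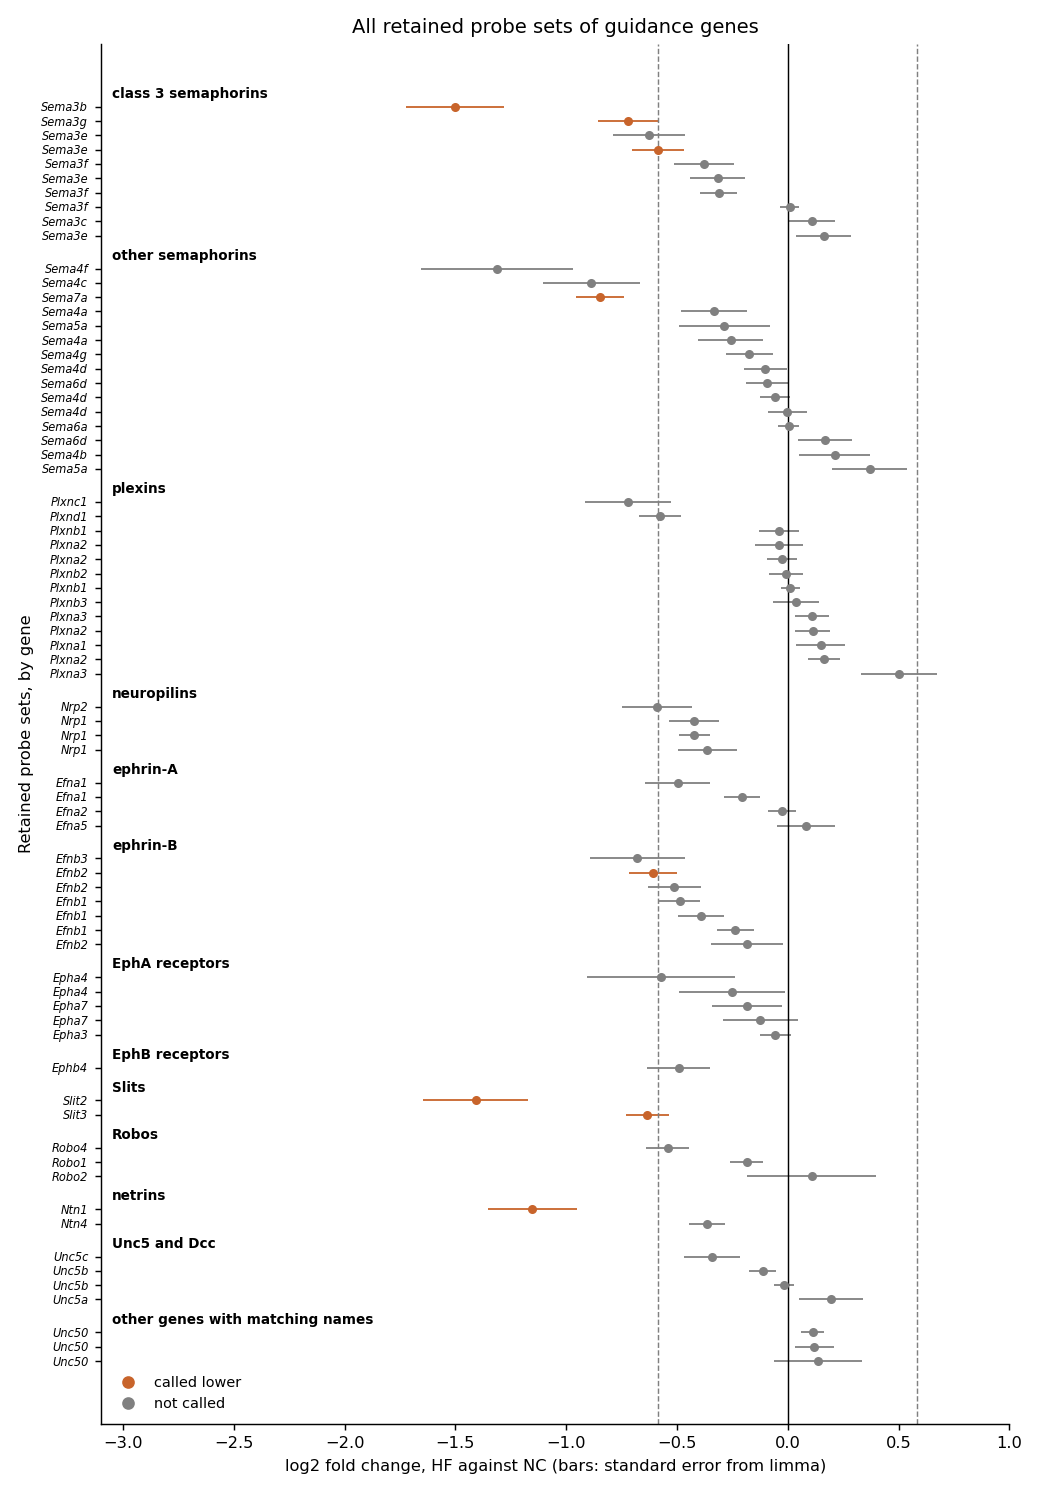
The log2 fold change of HF against NC is plotted for each of the 73 retained probe sets, grouped by family, with the standard error from limma as bars and dashed lines at the 1.5-fold limits. The 8 called probe sets (orange) all belong to ligands here, although receptors were also called lower under other settings and in 6 of the 8 runs without 1 sample, and no point passes the upper limit.

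Slit2 and Slit3, large secreted proteins that bind Robo receptors, were both called lower. Slit2 had intensities of 211, 111, 144 and 111 in NC and 45.6, 47.5, 72.7 and 48.0 in HF. Every HF sample lay under every NC sample, with HF replicate 23 above the other HF samples and NC replicate 1 above the other NC samples. The means were 144 ± 47.0 and 53.4 ± 12.9 (SD, n = 4 each). Expressed in log2 the difference was -1.41 with a standard error of 0.24 and an adjusted p of 0.0134 by limma, or 2.66-fold lower in HF. The exact two-sided permutation p was 0.0286, the smallest that 4 against 4 samples allow. The call held without any 1 of the 8 samples, with log2 fold changes from -1.57 to -1.21.

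Slit3 had intensities of 81.6, 64.5, 61.2 and 73.4 in NC and 43.9, 44.4, 43.0 and 48.5 in HF, again with no overlap. Its means were 70.1 ± 9.19 and 45.0 ± 2.40, and the difference in log2 was -0.63 (standard error 0.10, adjusted p 0.00876). The HF samples were close together and the NC samples spread more widely. Without NC replicate 1 the log2 fold change was -0.56, under the fold limit.

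Robo1, a receptor for both Slits, had intensities of 2208, 1792, 1893 and 2132 in NC and 1817, 1720, 1778 and 1715 in HF. The groups overlapped at NC replicate 2. Its log2 fold change was -0.19 (95% interval -0.36 to -0.01, adjusted p 0.211) and it was not called. Robo2 had a log2 fold change of 0.11 with an interval from -0.56 to 0.78, wide enough to leave changes in either direction possible. Robo4, a Robo known from endothelium, had intensities of 250.5, 249, 193 and 233 in NC and 156, 160.0, 172 and 146 in HF. The groups did not overlap, and its log2 fold change of -0.54 had an adjusted p of 0.0167 but stayed under the fold limit.

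Ntn1, the secreted netrin first known for attracting commissural axons, was among the genes called lower. Its intensities were 17.4, 22.4, 13.2 and 19.3 in NC and 6.15, 7.97, 10.6 and 7.85 in HF. There was no overlap, HF replicate 23 was the highest HF sample, and 3 of the 4 HF values were dimmer than 8.82, the filter's lowest retained level. With 1 HF value above that level, the probe set passed the filter on its NC samples alone. The log2 fold change was -1.15 (standard error 0.20, adjusted p 0.0152), or -0.94 with values under 8.82 raised to that level. Without HF replicate 24 the adjusted p was 0.0517. A second Ntn1 probe set was not retained, at 4.58 to 4.81 in all 8 samples.

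Ntn4, a netrin of basement membranes, had intensities of 301, 309.5, 312 and 303 in NC and 207, 261, 258 and 229.5 in HF. All HF samples were lower and the NC samples nearly equal, and Ntn4 differed by -0.36 in log2 (adjusted p 0.0369), short of the fold limit. Among the netrin receptors, Unc5a had a log2 fold change of 0.20 (95% interval -0.14 to 0.53, adjusted p 0.509), with HF replicate 23 at 458 and the other HF samples between 293 and 326. The 2 probe sets of Unc5b had log2 fold changes of -0.02 and -0.11, and Unc5c one of -0.34 (adjusted p 0.167). No Unc5 gene was called.

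**Figure D2:**
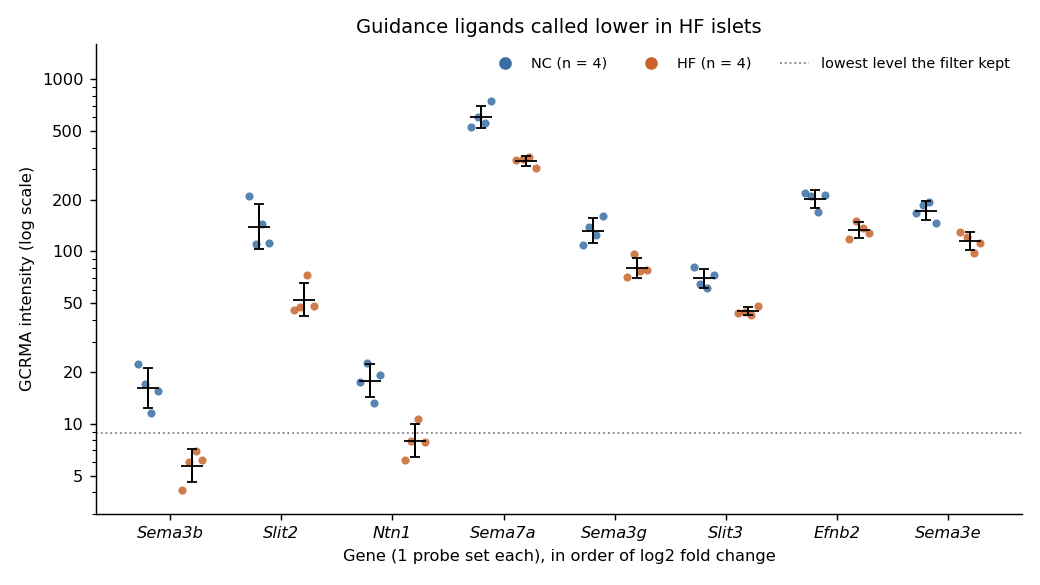
Each point is the intensity of 1 sample (log axis) for the 8 probe sets called lower in HF, with the mean and SD of the log values as black bars and the lowest level kept by the filter as a dotted line. In each of the 8 genes the 4 HF samples lie under the 4 NC samples, as for 7.84% of all retained probe sets. Because the 8 were picked by their fall, this separation adds no support. For Sema3b all 4 HF samples and for Ntn1 3 of 4 lie under the dotted line, and both genes were retained through their NC samples alone.

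Among the class 3 semaphorins, secreted proteins that mostly repel axons and vessel sprouts, 3 of 5 retained genes were called lower. This stands beside 4.66% of all genes with a retained probe set. The 3 include Sema3b, whose difference was built into its retention, and Sema3e, whose call was lost without most single samples. Sema3b had intensities of 22.3, 16.9, 11.6 and 15.6 in NC and 4.13, 6.01, 6.90 and 6.18 in HF. All HF values were under 8.82, so this probe set too was retained on its NC samples alone. The fold is therefore given as a bound, at least 1.83-fold lower in HF (limma adjusted p 0.00775). The means were 16.6 ± 4.40 and 5.80 ± 1.18. The call held without any 1 sample, but those runs kept the same filtered probe sets, so the built-in difference stayed. The gene's other 2 probe sets were not retained, at 3.99 to 8.58 in all samples.

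Sema3g, a class 3 semaphorin that binds neuropilin-2, had intensities of 109, 138, 124 and 161 in NC and 71.3, 96.6, 76.6 and 77.5 in HF. There was no overlap, and HF replicate 22 came nearest to the NC samples. Its means of 133 ± 22.1 and 80.5 ± 11.1 corresponded to a log2 difference of -0.72 (standard error 0.14, adjusted p 0.0222). The call was lost without NC replicate 2, HF replicate 21, HF replicate 23 or HF replicate 24, with adjusted p up to 0.0698 and log2 fold changes from -0.81 to -0.62.

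Sema3e, which can act on plexin-D1 without a neuropilin, was called lower on 1 of 4 retained probe sets. On that probe set the intensities were 167, 186, 193.5 and 146 in NC and 130.5, 121, 97.8 and 112 in HF. The groups did not overlap, and the difference in log2 was -0.59 (standard error 0.12, adjusted p 0.0265), just past the fold limit of 0.585. It was lost without NC replicates 1, 2 or 4 or HF replicates 22, 23 or 24, each left out alone, over a range of -0.67 to -0.51. The other 3 probe sets were not called, with log2 fold changes of -0.63, -0.32 and 0.16, so the probe sets of Sema3e disagree in direction.

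Sema3c, a class 3 semaphorin that signals through neuropilins, was not called. Its intensities were 227, 214, 279.7 and 258 in NC and 238.5, 285, 248 and 282.5 in HF. The groups overlapped throughout, with means of 245 ± 29.8 and 263.5 ± 23.7. The log2 fold change was 0.11 (95% interval -0.13 to 0.35, adjusted p 0.617), and neither end of this interval reached the fold limit. Sema3f, the remaining gene of this class, had log2 fold changes of -0.31, -0.38 and 0.01 on 3 probe sets, none called.

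Nrp1, the neuropilin that class 3 semaphorins share with the vascular growth factor VEGF, had lower HF means on all 3 retained probe sets and was called on none. On 1 of them its intensities were 6707, 6200.0, 6107 and 6478 in NC and 4252, 4867, 4985 and 4954 in HF. These groups did not overlap and each was tight, with means of 6373 ± 273 and 4765 ± 345. The log2 fold change of -0.42 (95% interval -0.58 to -0.27) had an adjusted p of 0.0115 and stayed under the fold limit. The other probe sets gave -0.36 (adjusted p 0.168) and -0.42 (adjusted p 0.0675). Nrp2 had intensities of 90.3, 96.0, 74.3 and 116 in NC and 58.6, 77.1, 60.4 and 53.5 in HF. The groups overlapped at HF replicate 22, and the log2 fold change of -0.59 had an adjusted p of 0.0689.

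**Figure D3:**
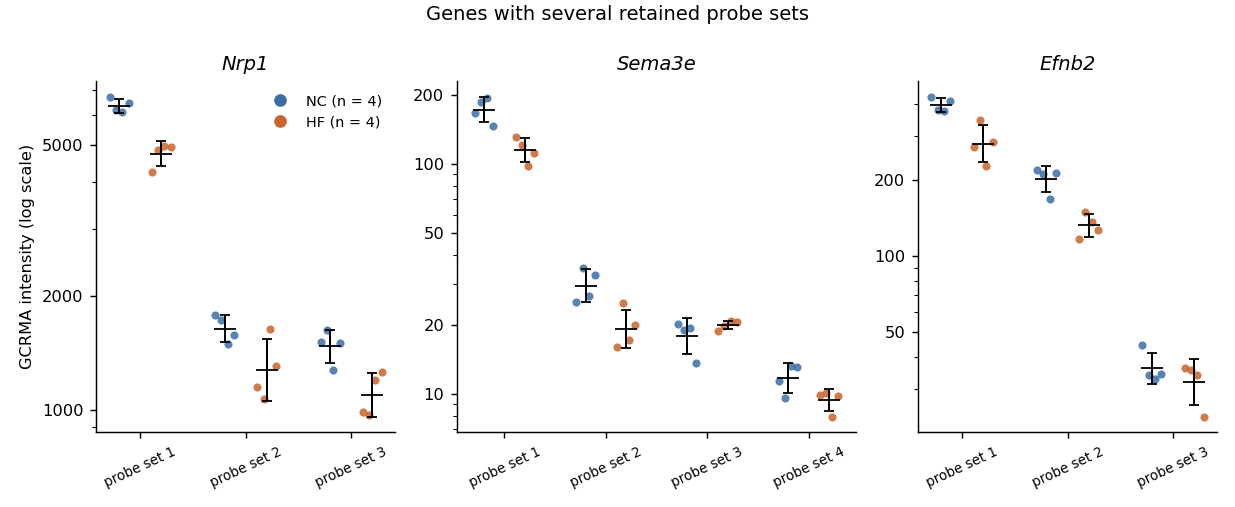
Intensities per sample (log axis) are shown for each retained probe set of Nrp1, Sema3e and Efnb2, ordered from brightest to dimmest, with the mean and SD of the log values as bars. All 3 Nrp1 probe sets have lower HF means, whereas the third Sema3e probe set has a higher HF mean than NC mean.

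Plexins, the signalling receptors for semaphorins, gave 13 retained probe sets of 8 genes, with 0 called and a median log2 fold change of 0.01. Plxnd1, the plexin of endothelium that binds Sema3e, had intensities of 252.5, 234, 213 and 277 in NC and 173, 166, 145 and 169 in HF. The groups did not overlap, and the log2 fold change of -0.58 (adjusted p 0.0123) lay just short of the fold limit. Plxnc1, the receptor of Sema7a, had a log2 fold change of -0.72 (adjusted p 0.0719), with groups that overlapped. Plxnb2, a receptor of class 4 semaphorins, had means of 2943 ± 103 and 2935 ± 278, a log2 fold change of -0.01 with an interval from -0.18 to 0.17, whose sign turned under 2 of the other scalings or weightings. The largest log2 fold change above 0 among the 73 probe sets was 0.50, for 1 of 2 Plxna3 probe sets (adjusted p 0.140).

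Of the other semaphorins, which are mostly anchored in the membrane, 1 of 10 retained genes was called. With 4.66% of all genes called lower, this count is too near that share to read a result about the family from. Sema7a, held in the membrane by a lipid anchor and known from both neurons and immune cells, had intensities of 529.7, 602, 557 and 744 in NC and 337, 345, 353 and 307 in HF. The HF samples lay within a narrow band well under the lowest NC sample. Its means of 608 ± 95.5 and 335.5 ± 20.3 corresponded to a log2 difference of -0.85 (standard error 0.11) and an adjusted p of 0.00469, the smallest p among these probe sets, and the call held without any 1 sample. Sema4f (-1.31, adjusted p 0.0656) and Sema4c (-0.89, adjusted p 0.0546) had larger log2 fold changes than Sema7a but more spread between samples, and were not called. With 1 probe set per gene and adjustment over genes, both of these were called and Efnb2 was not, for 9 genes in place of 8. Sema6d, a transmembrane semaphorin that binds Plxna1, had log2 fold changes of -0.09 (95% interval -0.32 to 0.13) and 0.17 on 2 probe sets.

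Among the ephrins, all 7 retained ephrin-B probe sets had log2 fold changes below 0 (background 43.4%), with a median of -0.49. They belong to only 3 genes, so they are not 7 separate falls. Efnb2, the ephrin that marks arterial endothelium and pairs with Ephb4 on veins, was called on 1 of 3 probe sets. There its intensities were 219, 211, 169 and 213 in NC and 117, 150.4, 137 and 127.5 in HF. The groups did not overlap, with NC replicate 4 well below the other NC samples. The log2 fold change was -0.61 (standard error 0.11, adjusted p 0.0166). It was lost without NC replicates 1, 2 or 5 or HF replicates 21 or 24, each left out alone, with log2 fold changes from -0.69 to -0.55 and adjusted p up to 0.0560. Its other 2 probe sets gave -0.51 (adjusted p 0.0467) and -0.18 (adjusted p 0.591).

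Efnb1 had log2 fold changes of -0.24, -0.39 and -0.49 on its 3 probe sets, of which the last had an adjusted p of 0.0226, and Efnb3 one of -0.68 (adjusted p 0.115). The ephrin-A genes gave 4 probe sets from -0.50 to 0.08 with none called. Efna5, a ligand of Epha5, had intensities of 267, 362, 273 and 296.5 in NC and 269.8, 314.5, 380.0 and 305 in HF. The groups overlapped, and the log2 fold change was 0.08 with an interval from -0.22 to 0.38. Retained Eph receptors were few. Ephb4 had intensities of 37.1, 39.5, 24.56 and 34.7 in NC and 24.2, 24.56, 24.3 and 22.1 in HF, which met without overlap at NC replicate 4 and HF replicate 22, and a log2 fold change of -0.49 (adjusted p 0.0885). Epha7 had log2 fold changes of -0.13 and -0.18, and Epha3 and Epha4 ran from -0.57 to -0.06, none called. Unc50, whose name alone matched the rule, had log2 fold changes of 0.11, 0.12 and 0.14.

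Of the 17 genes with 2 or more retained probe sets, 11 had all of them on 1 side of 0 and 6 had them on both sides.

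Ligands were then set beside their receptors in 11 pairs, as the log2 ratio of the ligand's to the receptor's intensity in each sample. A shift shared by a whole sample cancels in such a ratio. The pairs were chosen after the values were seen, and Unc5b, set beside Ntn1, was the retained Unc5 gene with log2 fold changes nearest 0. As differences of log2 fold changes, Slit2 differed from Robo1 by -1.22, Ntn1 from Unc5b by -0.93 with values under 8.82 raised to that level (-1.14 without), Slit3 from Robo1 by -0.45, and Sema3c from Nrp1 by 0.53. Ntn1 was retained through its NC samples alone, so a difference was built into its pair, which is given as a description only. In each of these 4 pairs the ratios of the 2 diets did not overlap (exact two-sided permutation p 0.0286, adjusted p 0.0786 over the 11 pairs), so none passed after adjustment. With 4 samples a diet at least 7 of the 11 pairs had to reach the smallest possible p for any to pass, so this outcome says little. In the other 7 pairs the ratios overlapped, with adjusted p from 0.126 to 1. Differences were -0.01 for Sema3e and Plxnd1, -0.02 for Efnb2 and Ephb4, -0.13 for Sema3g and Nrp2 and -0.13 for Sema7a and Plxnc1. In these 4 pairs ligand and receptor had log2 fold changes of similar size below 0.

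**Figure D4:**
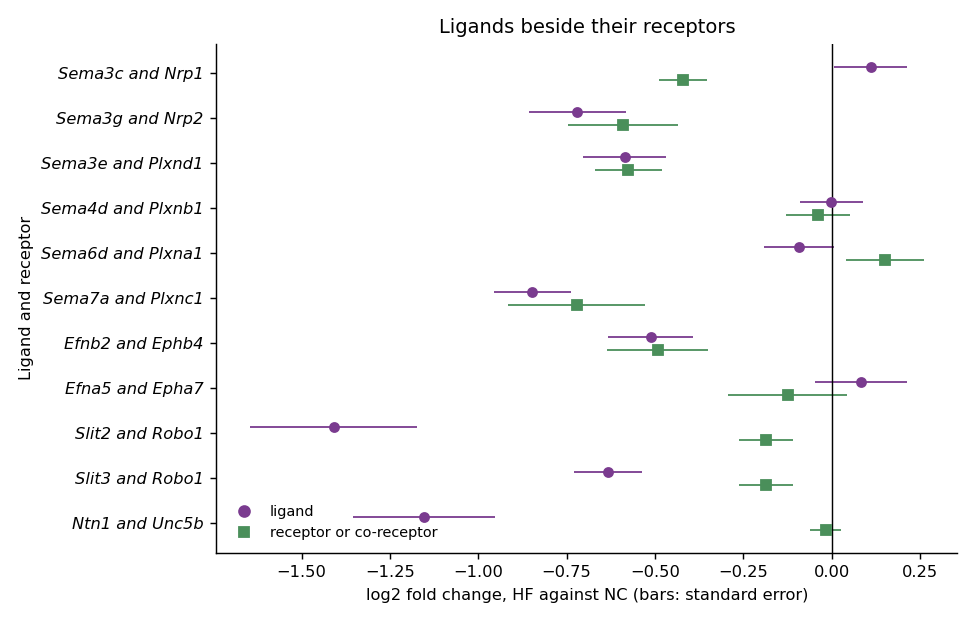
Log2 fold changes of HF against NC are shown for 11 ligands (circles) and their receptors or co-receptors (squares), with standard errors as bars. The Slit and netrin ligands lie left of the receptors paired with them, Robo1 at -0.19 and Unc5b at -0.02. Sema7a, Sema3g, Sema3e and Efnb2 lie close to theirs.

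Other genes of these pathways were described from 5 lists of effectors and further cues, of which 62 of 77 genes were retained. Of these, 4 were called lower and 1 higher, beside 4.66% and 1.07% of all 12299 genes with a retained probe set, shares too near to read a result about the lists from. The median log2 fold change over 137 probe sets was -0.01. Dpysl3, a cytoskeletal protein downstream of semaphorins and found in neurons, fell from 148, 130.2, 101 and 83.9 in NC to 5.70, 5.87, 39.1 and 13.2 in HF, or by -3.30 in log2 (adjusted p 0.0168). With its 2 HF values under 8.82 raised to that level this was -3.00. A second Dpysl3 probe set was also called lower, at -1.03, or -0.67 with low values raised. With 2 HF values under 8.82 in the first probe set and 3 in the second, both needed NC samples to pass the filter. Their tests are given as a description only. The adhesion molecule Chl1 had intensities of 245, 251, 264 and 180.0 in NC and 24.6, 17.6, 119.6 and 22.5 in HF, or -2.82 in log2 (adjusted p 0.0245) on 1 of 2 probe sets, the other being at 0.03. Its relative L1cam had a log2 fold change of -1.31 (adjusted p 0.0278). In the same list of further cues Cntn1 went the other way without overlap on both probe sets. Its log2 fold changes were 0.55 (adjusted p 0.0253), under the fold limit, and 0.33 (adjusted p 0.0676). Of the 30 probe sets of that list 19 lay above 0 and 11 below, with a median of 0.06. The small GTPase Rras, on which plexins act, had a log2 fold change of -0.59 (adjusted p 0.00717). HF replicate 23 was the highest HF sample for Dpysl3, Chl1 and L1cam, as it was for Slit2, Ntn1, Unc5a, Sema3b and Sema7a. For Slit3 and the called Sema3e probe set it was the lowest HF sample. Gsk3b, a kinase downstream of semaphorins, was called higher on 1 of 6 probe sets (0.67, adjusted p 0.0285), with the others from -0.01 to 0.22. The effectors of ephrins and Ephs (12 genes) and of Slits, Robos and netrins (15 genes) had 0 calls by limma. At an unadjusted limma p under 0.05, 7 of 25 and 6 of 32 of their probe sets were lower, beside 10.8% of all retained probe sets. Those higher were 0 and 2, beside 10.1% of all. The 4 genes lower became 0 without NC replicate 1 or HF replicate 24, 1 without NC replicate 2 or HF replicate 22, and 2 without HF replicate 21. The 1 gene higher became 2 without NC replicate 4 or HF replicate 22 and 0 without any 1 of the other 6 samples.

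Markers of several other cell types in islet preparations moved with diet. Counts of marker genes called by limma stand beside 4.66% lower and 1.07% higher of all 12299 genes with a retained probe set. Fibroblast markers were lower for 8 of 8 retained genes (median log2 fold change -2.39), and their summed intensity ran from 8984 to 13880 in NC and from 1525 to 3097 in HF. Schwann cell markers were lower for 5 of 7 (summed 1731 to 1965 and 1308 to 1431), with a median of -1.15 and with Gfap not retained. Their sum was carried by 1 probe set of Mbp, a myelin protein, which was not called (means 1336 and 1219). Cdh11 among the fibroblast markers and Cdh19 among the Schwann cell markers each had 2 HF values under 8.82. Both genes needed NC samples to pass the filter, so a difference was built in and their tests are given as a description only. Markers of peripheral neurons were lower for 4 of 10 (7968 to 11140 and 3576 to 5758), with a median of -0.85 and with Chat and Slc18a3 not retained. HF replicate 23 stood apart in some of these markers but not in all. For Stmn2, a protein of growing neurites, its intensity was 339 beside 49.2 to 77.4 in the other HF samples. For Hand2, a transcription factor of autonomic neurons, it was 75.0 beside 12.9 to 31.0, and for Npy, a neuropeptide, 483 beside 154 to 259. Dbh, by contrast, was lowest in HF replicate 23 (75.0 beside 79.7 to 98.1), and Gal and Gap43 were highest in HF replicate 24. HF replicate 23 was also the highest HF sample for Slit2 and Ntn1, whose log2 fold changes without it were -1.57 and -1.29. Both were still called, Ntn1 with a difference built into its retention. Of the other called genes, HF replicate 23 was also highest among the HF samples for Sema3b (6.90) and Sema7a (353). It was lowest for Slit3 (43.0) and the called Sema3e probe set (97.8), and HF replicate 22 was highest for Sema3g (96.6) and the called Efnb2 probe set (150.4). Smooth muscle and pericyte markers were lower for 5 of 7 (10990 to 12210 and 7384 to 8675), with a median of -0.54 and with Cnn1 and Cspg4 not retained.

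Of the endothelial markers 2 of 11, Pecam1 and Tek, were called lower, with a median of -0.49 over 18 probe sets. Their summed intensity was 18500 to 21640 in NC and 14140 to 16010 in HF, and Cldn5 was not retained. Lymphatic markers were lower for 1 of 3 (1504 to 1788 and 1056 to 1208), macrophage markers for 3 of 7 (4556 to 5402 and 2890 to 3879), and lymphocyte markers for 2 of 3 (1280 to 1589 and 322.5 to 759), with Cd3e and Cd3g not retained. No marker was called for beta cells (0 of 8, Mafa not retained, 249400 to 255300 and 263800 to 276600), alpha cells (0 of 4, 89100 to 92580 and 86870 to 95070) or delta and PP cells (0 of 4, 99520 to 101400 and 82590 to 95190). The same held for acinar cells (0 of 7, Pnlip, Prss1 and Rbpjl not retained, 234800 to 300800 and 256100 to 294000) and duct cells (0 of 5, Spp1 not retained, 2992 to 3469 and 2854 to 3417). In lists this short, counts of 0 are too near the 4.66% of all genes called lower to read a contrast between cell types from. At an unadjusted limma p under 0.05, 3 of 7 alpha cell and 3 of 4 delta and PP cell probe sets were lower, and 1 of 12 beta cell probe sets was higher. Over all retained probe sets the shares were 10.8% lower and 10.1% higher. The part of these cell types in the changes of the guidance genes was not tested.

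**Figure D5:**
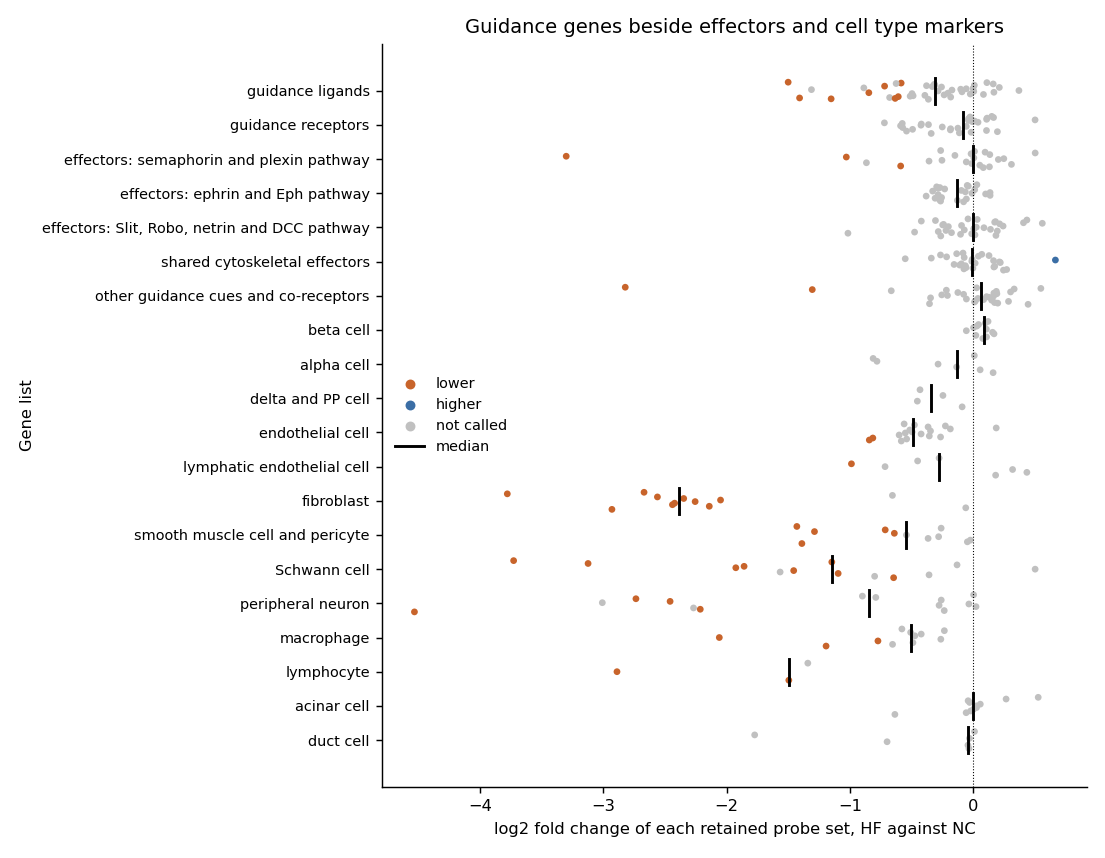
Each point is the log2 fold change of 1 retained probe set, for guidance ligands, guidance receptors, the 5 pathway lists and 13 lists of cell type markers, with black lines at the medians. Ligands have a median of -0.31, receptors -0.09, fibroblast markers -2.39 and endothelial markers -0.49, and beta cell markers lie at 0.09.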

How the data were processed

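Per the labels and methods, the authors summarised each probe set from the array images with GCRMA in ArrayAssist Lite 3.4, and the deposited values are intensities on the linear scale (from 1.33 to 142713), 1 column per sample. Here log2 was applied without renormalizing. Gene names came from the platform's annotation, under which 34958 probe sets have 1 gene, 932 several and 9211 none. The study kept probe sets flagged present. Flags were not used here, and an equal number was selected instead by ranking each probe set on its third-highest value among the 8 samples.

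The diets were tested with limma 3.58.1 under R 4.3.3 (lmFit, eBayes), using Benjamini-Hochberg adjustment over 25617 probe sets. The script was tested on simulated data. SAM, named in the methods, was not run. Exact permutation p-values came from all 70 ways to divide 8 samples into diets. Where all 4 HF values lay under 8.82, the fold is a bound against that level. Some cell type markers are not reported here. Promoter letters came from RefSeq tables.

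The members, the lists and the tests were chosen with earlier results of these data known. Genes named were Sema3c, Nrp1, Epha5 and Slit2, those called, the gene with the highest probe set intensity in each family (which does not rank genes by expression), those whose probe sets disagree and the called pathway genes. Others, such as those with an adjusted p under 0.05 and no call, and the 11 ligand and receptor pairs, were chosen after their values were seen. Nothing in the labels says that pools were prepared separately beyond their being separate samples, so p-values measure the spread between these pools. The number of arrays limits the precision. Alternatives were other filters, scalings, variance priors, sample weights, a Student test, other thresholds, low values raised (for the pairs, added after the values were seen), 1 probe set per gene and leaving out each sample. The methods name the Student test for comparing groups in general and SAM for the arrays.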

Additional observations from a re-analysis of the deposited data

Results flagged for a closer look

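In 8 of 52 groups of 4 samples examined for the named probe sets, the highest or lowest sample lay far from the other 3, measured on log2 intensities as its gap to the nearest sample over the whole range of the group. Chance alone gives about 1 in 20 such groups. For Slit2 this share was 0.887 in HF, where replicate 23 stood at 72.7 and the next sample at 48.0. For Nrp1 it was 0.849 in HF, on the brightest probe set, where replicate 21 was lowest at 4252 beside 4867. For Ephb4 it was 0.858 in HF, with replicate 24 lowest at 22.1 beside 24.2.

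Efnb2 had 3 such groups. On the called probe set the share was 0.850 in NC, with replicate 4 lowest at 169 beside 211. On the dimmest probe set it was 0.855 in NC, with replicate 1 highest at 44.4 beside 34.2, and 0.856 in HF, with replicate 24 lowest at 23.25 beside 34.0. Sema3e had one such group on each of 2 probe sets that were not called, 0.844 in NC with replicate 5 lowest at 13.6 beside 19.0, and 0.881 in HF with replicate 23 lowest at 7.96 beside 9.79.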

How the results depend on the processing

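No member probe set was called higher under any alternative run. Of the named probe sets, Sema3b, Sema7a and Slit2 kept their calls without any 1 sample. These runs kept the same filtered probe sets. Sema3b was retained through its NC samples alone, so its built-in difference stayed in each run and its outcome adds no support. The count of member probe sets lower (8) and of member genes lower (8) was 1 and 1 with the stricter filter, which tested only 21 member probe sets, 15 and 14 scaled on beta cell markers (which moved the median of all probe sets from 0.02 to -0.05), 3 and 3 with the Student test adjusted, 14 and 13 with it unadjusted, 14 and 13 with no fold limit, 3 and 3 with a fold limit of 2, 3 and 3 at an adjusted p under 0.01, and 5 to 13 for both when 1 sample was left out. Families with a lower member (5) numbered 1, 8, 3, 8, 3 and 3 with the stricter filter, beta cell scaling, the adjusted Student test, no fold limit, a fold limit of 2 and an adjusted p under 0.01, and 4 to 9 without 1 sample (9 without NC replicate 4, 8 without HF replicate 22).

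Over all probe sets, 783 lower became 377 with the stricter filter, 450 with the adjusted Student test, 432 at a fold of 2, 409 at an adjusted p under 0.01 and 543 to 759 without 1 sample. The 165 higher became 85 with no filter, 59 and 332 with the Student test adjusted and unadjusted, 520 with no fold limit, 47 at a fold of 2, 45 at an adjusted p under 0.01, and 93 to 158 without 1 sample (93 without NC replicate 1 or HF replicate 24, 101 without NC replicate 2, 109 without HF replicate 21). Pathway genes lower (4) were 2 with no filter, 2 with the stricter filter, 1 with the adjusted Student test, 8 with no fold limit, 1 at an adjusted p under 0.01 and 0 to 4 without 1 sample. Pathway genes higher (1) were 0 with no filter, the adjusted Student test, a fold of 2 or an adjusted p under 0.01, 2 when the fold limit was dropped and 0 to 2 on leaving out 1 sample. Cell type markers lower (30) were 19 with the stricter filter and 25 to 32 without 1 sample. Near 0, Plxnb2 turned to 0.0045 with equal medians and 0.0056 with sample weights and ranged from -0.0604 to 0.0518 without 1 sample, Efna5 ranged from -0.0083 to 0.18 and Epha7 from -0.27 to 3e-04. The cause of these changes was not tested, other than fewer probe sets or samples. No paired analysis was possible because the diets share no replicate numbers. Signals near the filter's level, as for Sema3b and Ntn1 in HF, limit what a fold can show.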
